A study of Cavia porcellus with 34 samples.

Results

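Expression of 9 genes that write, erase and read DNA methylation was measured in the paraventricular nucleus (PVN) of the hypothalamus of juvenile female guinea pigs: the methyltransferases DNMT1 and DNMT3A, the dioxygenases TET1, TET2 and TET3, and the readers MBD2, MBD3, UHRF1 and UHRF2. They were taken by gene symbol from the table of each generation, which held 12114 genes for F1, 12207 for F2 and 12068 for F3, and all 9 had a mean of at least 10 and were tested in every generation. Pregnant F0 females received saline (Veh) or the synthetic glucocorticoid betamethasone (sGC). The F1 offspring were exposed in utero, and F2 and F3 followed from F1 males of each group through the paternal line. All animals were killed on postnatal day 40, with 5 Veh and 5 sGC females for F1, 5 and 5 for F2, and 6 and 6 for F3. The comparison of sGC with Veh within each generation asks whether exposure of the F0 mother goes with altered transcript levels in her descendants.

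Methyl groups on cytosines of CpG dinucleotides are placed by DNMT3A on unmodified DNA and copied to the new strand after replication by DNMT1, which UHRF1 brings to hemimethylated sites. TET enzymes oxidise methylcytosine, and base excision repair can then restore an unmodified cytosine. In the brain, where most neurons no longer divide, DNMT3A and the TET enzymes remain expressed, and proteins with a methyl-CpG binding domain link methylated DNA to chromatin-modifying complexes such as NuRD.

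Values are the deposited normalized counts divided by a size factor per animal, called scaled normalized counts here. The 3 tables were normalized separately, so levels are compared only within a generation, and no transcript lengths of the genome build were used here, so levels of different genes are not ranked. Summed deposited values were 15573233 to 21935501 per animal for F1, 15645962 to 19435104 in F2 and 18692048 to 18977539 in F3. The punches contained the PVN and may hold neighbouring hypothalamus. Neuroendocrine PVN markers (AVP, OXT, CRH, TRH, SIM1, OTP) were expressed in every animal, but their summed level was uneven in F1 and in F2. In F1 it was 107424 to 209457 in the 5 Veh animals, and 138239 and 172059 in the sGC animals SGM12 and SGM16. It was 19747, 28642 and 49502 in the F1 sGC animals SGM4, SGM8 and SGM20, below every Veh animal. All 6 markers had a lower mean in F1 sGC and 1 of them, TRH, passed the adjusted test. Of the other marker genes in F1, the neuronal STMN2 passed at a log2 fold change of -0.21 and the microglial CX3CR1 at 0.24 (limma adjusted p = 0.0197 and 0.0496). SGM4 and SGM8 also had summed endothelial markers of 8114 and 6795, against 4376 to 5134 in Veh, summed oligodendrocyte markers of 61330 and 89867, against 28868 to 51566, and summed microglial markers of 6474 and 4453, against 3637 to 3888. In F2 the summed level of 6 oligodendrocyte markers was 127804 to 239467 in Veh and 75165 to 106744 in sGC, with 0 of 6 past the adjusted test. The summed PVN markers of F2 were 53465 to 102706 in Veh. They were 103824, 108344, 194539 and 145156 in the sGC animals SGM26, SGM30, SGM24 and SGM25, above every Veh animal, and 75658 in SGM21. All 6 PVN markers had a higher mean in F2 sGC, and 0 passed the adjusted test. In bulk tissue, fewer cells of a type and less RNA per cell cannot be told apart.

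In F1, 4 of the 9 genes passed the test. DNMT1, TET2 and TET3 rose in sGC offspring by 14.6%, 27.4% and 17.9%, and UHRF2 fell by 11.9% (limma, Benjamini-Hochberg adjusted p under 0.05 over 11870 genes). Of all genes tested, 17.3% passed (8.48% higher in sGC and 8.86% lower), so that changes of this kind were widespread in F1. None of the 9 genes passed in F2 or in F3. The median log2 fold change of the 9 genes in F1 was 0.16, beside 0.00 for all genes tested. It was 0.04 in F2 and -0.06 in F3, beside 0.00 in both.

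**Figure D1:**
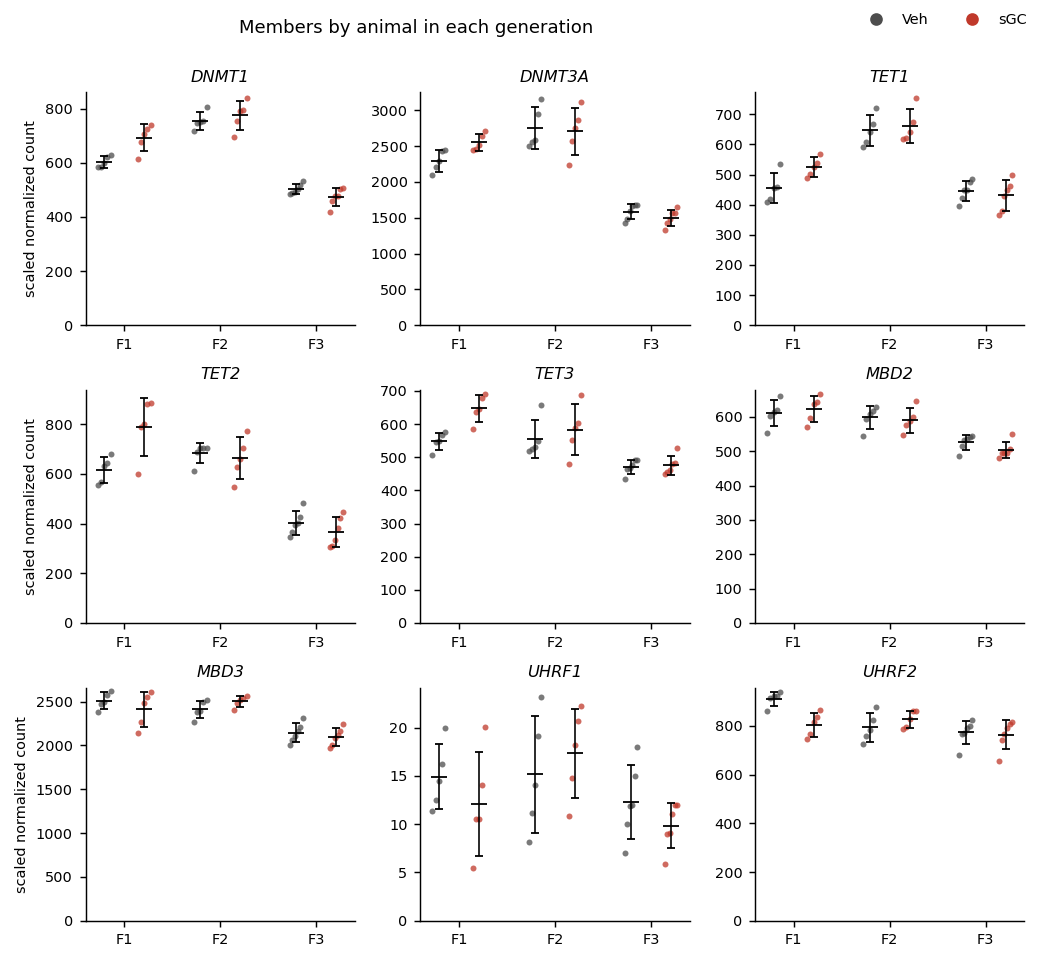
Scaled normalized counts (y axis, from 0) of the 9 genes in each animal (points) by generation (x axis), with Veh in grey and sGC in red; bars give the mean ± SD of 5 animals per group in F1 and F2 and of 6 in F3. In F1 the TET3 values of the sGC animals lie above all Veh values, and in F2 and F3 the groups overlap for every gene. Levels are comparable only within a generation.

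Among the writers, the maintenance methyltransferase DNMT1 was measured at 584, 629, 599, 620 and 584 scaled normalized counts in the F1 Veh animals and at 615, 725, 739, 708 and 676 in the sGC animals. Only the sGC animal SGM4 lay inside the Veh range, and the other 4 lay above it. The means were 603 ± 20.6 and 693 ± 49.5 (SD, n = 5 each), a log2 fold change of 0.20 ± 0.06 (SE, limma adjusted p = 0.037).

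The de novo methyltransferase DNMT3A stood at 2093 to 2450 in F1 Veh and at 2446 to 2713 in F1 sGC. In 4 of 5 sGC animals it lay above the highest Veh animal. The log2 fold change of 0.16 ± 0.05 (SE) did not pass the threshold (limma adjusted p = 0.0584), with a 95% confidence interval from 0.04 to 0.27.

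TET3, one of the erasers, showed the clearest separation. It was measured at 508, 545, 548, 567 and 575 in F1 Veh and at 638, 678, 646, 689 and 584 in F1 sGC. It is the one gene of the 9 whose F1 groups do not overlap, beside 14.2% of all genes. The means were 548 ± 26.0 and 647 ± 41.4 (SD, n = 5 each) and the log2 fold change was 0.24 ± 0.06 (SE, limma adjusted p = 0.0193).

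TET2 had the largest fold change of the 4 genes that passed and the widest spread among them. Its values were 642, 566, 631, 557 and 682 in F1 Veh and 887, 598, 800, 880 and 788 in F1 sGC. The sGC animal SGM8, at 598, lay within the Veh range, while the other 4 exceeded the highest Veh animal. The means were 616 ± 52.9 and 791 ± 117 (SD, n = 5 each), with a log2 fold change of 0.35 ± 0.11 (SE, limma adjusted p = 0.043). Without SGM8 the log2 fold change was 0.45 (limma adjusted p = 0.00429).

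TET1 ranged from 408 to 536 in F1 Veh and from 487 to 569 in F1 sGC. All 5 sGC animals lay above the Veh mean, but 3 of them lay within the Veh range. Its log2 fold change of 0.21 ± 0.08 (SE) was close to that of DNMT1 and did not pass (limma adjusted p = 0.0893).

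Among the readers, UHRF2 was the one that passed. UHRF2, a RING-finger protein of the UHRF family that binds modified CpG sites, was lower in F1 sGC, with 766, 745, 835, 864 and 815 beside 863, 939, 915, 922 and 922 in Veh. In 4 of 5 sGC animals it lay below the lowest Veh animal, and in SGM16, at 863.7, it lay just above that animal at 863.1. The means were 912 ± 29.0 in Veh and 805 ± 48.96 in sGC (SD, n = 5 each), a log2 fold change of -0.18 ± 0.05 (SE, limma adjusted p = 0.0305).

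UHRF1, the partner of DNMT1 at replication, was near the lower limit of what was tested, with 5.5 to 20.1 scaled normalized counts over the 10 F1 animals. Its log2 fold change of -0.36 had a 95% confidence interval from -1.04 to 0.32, so neither a rise nor a fall could be detected at this level. MBD2, which binds methylated CpG, stood at 554 to 660 in F1 Veh and 571 to 668 in F1 sGC (log2 fold change 0.03, 95% confidence interval -0.10 to 0.16). MBD3, a subunit of NuRD, stood at 2386 to 2622 and 2141 to 2612 (log2 fold change -0.06, 95% confidence interval -0.19 to 0.06). For both genes the groups overlapped over most of their range.

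**Figure D2:**
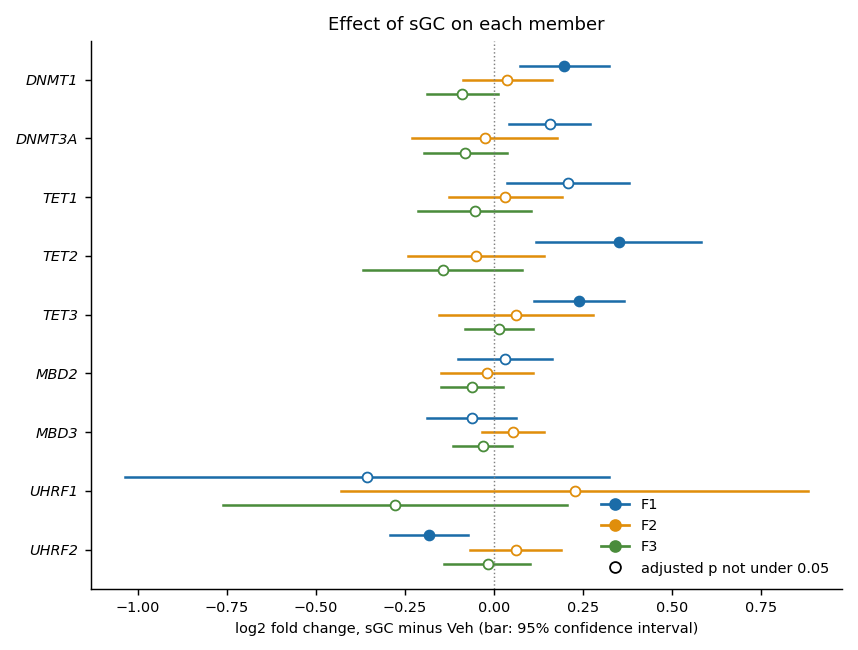
Log2 fold change of sGC against Veh (x axis) for each of the 9 genes (y axis) in F1, F2 and F3, with 95% confidence intervals from limma; filled points passed an adjusted p of 0.05. The 4 filled points are DNMT1, TET2, TET3 and UHRF2 in F1, and the wide intervals belong to UHRF1, the gene with the lowest counts.

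How firmly these 4 genes passed differed between them, and the size of the change was steadier than the call. When each F1 animal was left out in turn, TET3 passed in 9 of 10 fits, all but that without Veh SGM11 (limma adjusted p = 0.0553). UHRF2 passed in 3 (without Veh SGM3, sGC SGM12 or sGC SGM16), DNMT1 in 2 (without sGC SGM4 or Veh SGM15) and TET2 in 1 (without sGC SGM8). DNMT3A passed without Veh SGM15 or SGM19 (limma adjusted p = 0.0455 and 0.0498) and TET1 without Veh SGM19 (limma adjusted p = 0.029). The number of the 9 genes that passed was 0 without Veh SGM11, 1 without Veh SGM7 or sGC SGM20, 2 without Veh SGM3 or sGC SGM4, SGM8, SGM12 or SGM16, and 3 without Veh SGM15 or SGM19. Over the same fits the log2 fold change ran from 0.21 to 0.28 for TET3, 0.17 to 0.24 for DNMT1, 0.31 to 0.45 for TET2 and -0.21 to -0.16 for UHRF2. When the direction that the authors' normalization had removed was counted as a used degree of freedom, TET3 alone passed (limma adjusted p = 0.0389), and the other 3 had limma adjusted p of 0.0565 to 0.0684. On the deposited values without size factors 0 of the 9 genes passed, with 0.657% of all genes, while the log2 fold changes were 0.26 for DNMT1, 0.41 for TET2, 0.30 for TET3 and -0.12 for UHRF2. Scaling to the summed values of each animal gave 5 of the 9, DNMT3A being the fifth (limma adjusted p = 0.0496).

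**Figure D3:**
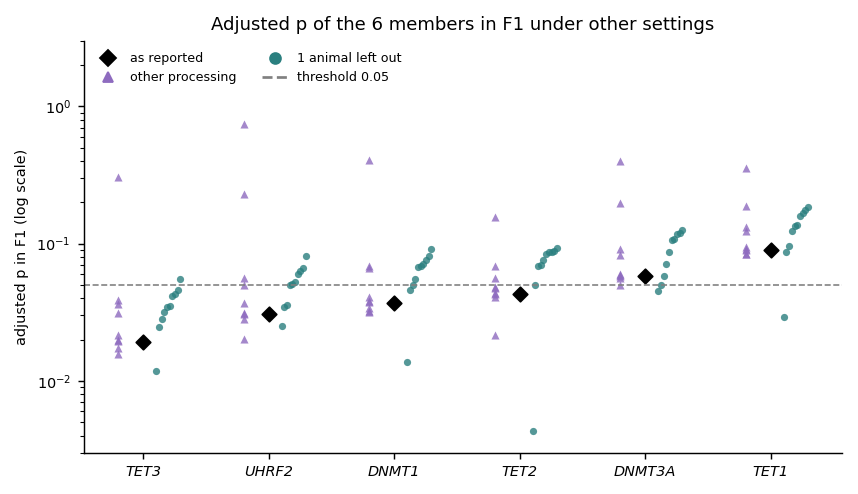
Limma adjusted p in F1 (y axis, log scale) for the 4 genes that passed and for DNMT3A and TET1: the value as reported (diamond), under other processing settings and without the sGC animals of low PVN marker level (triangles), and with 1 animal left out (circles). The TET3 circles lie under the dashed threshold of 0.05 in 9 of 10 fits, and the highest triangle of each gene is the fit on unscaled values.

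The 4 genes were also read beside the uneven PVN markers. The sGC animals SGM12 and SGM16, whose summed PVN marker levels lay within the Veh range, had DNMT1 at 739 and 708, TET2 at 800 and 880 and TET3 at 646 and 689, all above the highest Veh animal. Without SGM4, SGM8 and SGM20, a setting chosen after seeing the data that leaves 2 sGC animals, DNMT1, TET2 and TET3 passed with log2 fold changes of 0.26, 0.45 and 0.28 (limma adjusted p = 0.0316, 0.0215 and 0.0361). UHRF2 did not pass in that fit, at -0.10 (limma adjusted p = 0.231), and its values in SGM12 and SGM16 were 835 and 864. The part of the PVN markers in the differences of these 4 genes was not tested, and a fit with 2 sGC animals cannot settle it.

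No size factor enters a ratio of 2 genes within an animal. The deposited values had already been normalized by residuals, and the part of that step in the ratios was not tested. The pairs below were chosen after the values were seen and carry no test, and UHRF2 was taken as the denominator because it was lower in sGC, which by itself moves each ratio to it apart. The ratio of DNMT1 to UHRF2 was 0.633 to 0.676 in the F1 Veh animals and 0.802 to 0.974 in the F1 sGC animals. That of TET3 to UHRF2 was 0.58 to 0.623 and 0.716 to 0.911, and that of TET2 to UHRF2 was 0.603 to 0.744 and 0.803 to 1.16. The ratios of DNMT3A and TET1 to UHRF2 were 2.23 to 2.66 against 2.93 to 3.64 and 0.446 to 0.581 against 0.597 to 0.723, which adds nothing to the 2 genes not having passed on their own. With MBD3 as the denominator in place of UHRF2, the ratio of TET3 was 0.194 to 0.241 in Veh and 0.247 to 0.282 in sGC. The ratio of the 2 writers, DNMT3A to DNMT1, was 3.33 to 4.19 in Veh and 3.31 to 4 in sGC, and that of the readers MBD2 to MBD3 was 0.211 to 0.26 and 0.219 to 0.297, ranges that overlap. All of these ratios overlapped between the groups in F2 and F3.

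**Figure D4:**
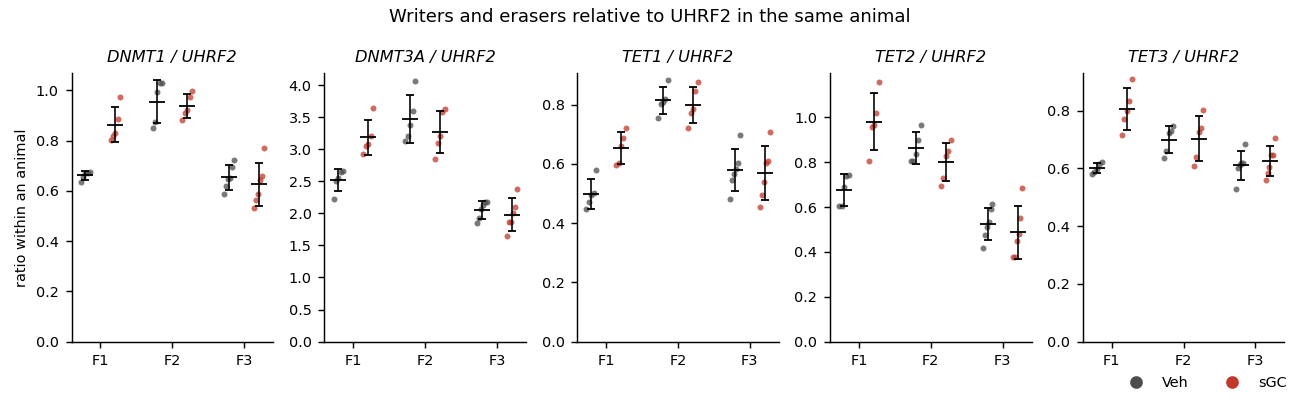
Ratio of DNMT1, DNMT3A, TET1, TET2 and TET3 to UHRF2 within each animal (y axis, from 0) by generation (x axis), Veh in grey and sGC in red, with the mean ± SD of each group. In F1 the sGC points lie above the Veh points in all 5 panels, for example 0.802 to 0.974 against 0.633 to 0.676 for DNMT1, and in F2 and F3 they overlap.

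In F2, 0 of the 9 genes passed, as did 0% of the 11959 genes tested by limma. At an unadjusted p under 0.05 there were 0 of the 9 genes and 12.8% of all genes (1534). Quantile normalization, the setting with the most calls in F2, gave 42 genes and 0 of the 9. All 9 genes had overlapping groups, where 3.21% of all genes did not overlap. DNMT1 was 719 to 806 in Veh and 694 to 839 in sGC (log2 fold change 0.04, 95% confidence interval -0.09 to 0.16). TET3 was 518 to 657 in Veh and 478 to 689 in sGC (log2 fold change 0.06, 95% confidence interval -0.15 to 0.28), and UHRF2 was 727 to 878 and 787 to 861 (log2 fold change 0.06, 95% confidence interval -0.07 to 0.19). The intervals of DNMT1 and UHRF2 leave out the F1 estimates, whereas that of TET3 includes its F1 estimate. Such a reading ignores the error of the F1 estimates and is no test of a difference. In the joint fit below, DNMT1 did not pass between F1 and F2 (limma adjusted p = 0.15).

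In F2, 2 sGC animals marked the ends of the range for several genes. SGM21 had the lowest value of all 10 animals for DNMT1 (694), DNMT3A (2237), TET2 (546) and TET3 (478), while SGM25 had the highest for TET1 (753), TET2 (774), TET3 (689) and MBD2 (645). Without SGM21 the log2 fold changes of DNMT3A, TET2 and MBD2, which were -0.03, -0.05 and -0.02, became 0.04, 0.02 and 0.01. The directions of these genes in F2 therefore rest on single animals. Unscaled values also turned the sign of DNMT1, TET1, TET3, MBD3 and UHRF2 in F2, where scaling moved the median of all genes from -0.08 to 0.00.

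In F3, 0 of the 9 genes passed, with 0.0421% of the 11865 genes tested (5 genes). At an unadjusted p under 0.05 there were again 0 of the 9, beside 13.2% of all genes, and all 9 groups overlapped, where 1.26% of all genes did not. All but TET3 had a lower mean in sGC, and the log2 fold changes ran from -0.28 for UHRF1 to 0.01 for TET3. DNMT1 was at 484 (lowest), 497 (median) and 534 (highest) in Veh and at 420, 477 and 505 in sGC, with 4 of 6 sGC animals below the lowest Veh animal. Its log2 fold change was -0.09 (95% confidence interval -0.19 to 0.01, limma adjusted p = 0.438), opposite in sign to F1. TET2 was at 344, 398 and 485 in Veh and at 305, 357 and 448 in sGC (log2 fold change -0.14, 95% confidence interval -0.37 to 0.08).

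Of the F3 libraries analysed here, the second sequencing batch held the sGC animals SGM21b and SGM22b and no Veh library. The Veh animals SGM5 and SGM9 were sequenced in both batches, and their values were taken as those of the first from the column names. The sGC animals SGM21b and SGM22b had TET2 at 305 and 333, both below the lowest Veh animal. SGM21b also had the lowest DNMT3A (1330) and TET1 (367) of the 12 animals. In the first batch alone the log2 fold change was -0.05 for TET2, -0.05 for DNMT3A and -0.01 for TET1 (-0.14, -0.08 and -0.05 with both batches), while that of DNMT1 was -0.10. In the first batch alone 0 of the 9 genes passed. Since the second batch holds sGC libraries only, batch as a covariate uses the same contrast and is no second check.

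A joint fit over the 32 animals tested whether the effect of sGC differed between generations. The fold changes of DNMT1 and TET2 were higher in F1 than in F3, by 0.29 ± 0.07 and 0.49 ± 0.15 on the log2 scale (SE, limma adjusted p = 0.00623 and 0.0219), in a contrast where 17.6% of all 11425 genes passed. UHRF2 had a lower fold change in F1 than in F2, by -0.24 ± 0.08 (SE, limma adjusted p = 0.0435), where 14.3% of all genes passed. None of the 9 genes passed in the contrast of F2 with F3, where 0.158% of all genes did. TET3, the gene with the firmest change in F1, did not pass in the contrast of F1 with F2 (0.17, 95% confidence interval -0.03 to 0.38) or of F1 with F3 (0.22, 95% confidence interval 0.03 to 0.42, limma adjusted p = 0.109). Both contrasts use the same F1 animals. DNMT1 did not pass against F2 (0.16, 95% confidence interval 0.01 to 0.31, limma adjusted p = 0.15). The differences of DNMT1 and TET2 from F3 passed without any 1 of the 32 animals, and neither passed on unscaled values (limma adjusted p = 0.0961 and 0.0524). The UHRF2 difference from F2 did not pass without any 1 of 12 animals (SGM4, SGM7, SGM8, SGM11, SGM15 and SGM19 of F1, SGM23, SGM24, SGM25, SGM26 and SGM29 of F2, and SGM6 of F3), where the limma adjusted p reached 0.0903, or with weights for the spread of each generation (limma adjusted p = 0.15). On unscaled values it was -0.11 (limma adjusted p = 0.634), and TET2 passed in its place, with a fold change higher in F1 than in F2 by 0.54 (limma adjusted p = 0.0475). The PVN markers had lower means in sGC in F1 and higher means in sGC in F2, and their part in these differences was not tested.

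The other genes of the pathway were taken from lists of partners, described here by their counts in F1. The share of all genes that passed there was 17.3% (8.48% higher in sGC and 8.86% lower). Among other writers and cofactors, 2 of 10 tested genes rose and 1 fell. DMAP1, a DNMT1-associated repressor, fell from 1573 to 1702 in Veh to 1247 to 1423 in sGC (log2 fold change -0.31, limma adjusted p = 0.00244). SETD2 and NSD1, histone H3 lysine methyltransferases whose marks guide DNMT3 enzymes, rose with log2 fold changes of 0.23 and 0.10 (limma adjusted p = 0.0105 and 0.0238). Of 6 other tested genes listed as methyl-CpG readers, whose binding was not measured here, 3 rose and 0 fell. Among them, MBD5 was 725 to 818 in Veh and 938 to 1017 in sGC (log2 fold change 0.32, limma adjusted p = 0.0019), and ZBTB38 rose by 0.17 on the log2 scale (limma adjusted p = 0.0258).

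Of 5 tested genes listed as binders of unmethylated CpG, 3 rose and 0 fell, and the median log2 fold change was 0.25. KMT2A and KMT2B, histone H3 lysine 4 methyltransferases, had log2 fold changes of 0.37 and 0.32 (limma adjusted p = 0.00287 and 0.00122), and the demethylase KDM2A had 0.25 (limma adjusted p = 0.00228). FBXL19 and KDM2B did not pass, at 0.13 and 0.05 (limma adjusted p = 0.246 and 0.523). KMT2B was 937 to 1017 in Veh and 1170 to 1271 in sGC, with no overlap.

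Downstream of the TET enzymes, 4 of 18 tested genes of demethylation and base excision repair fell and 0 rose. Of all genes tested in F1, 8.86% passed as lower in sGC and 8.48% as higher. The endonuclease APEX1 was 1752 to 1931 in Veh and 1548 to 1603 in sGC (log2 fold change -0.23, limma adjusted p = 0.0031), and the repair polymerase POLB was 497 to 531 and 396 to 477 (log2 fold change -0.23, limma adjusted p = 0.0225). CXXC5, a TET2-interacting protein, and the uracil glycosylase SMUG1 had log2 fold changes of -0.20 and -0.30 (limma adjusted p = 0.0268 and 0.0289). SMUG1 is named to complete this count, after its value was seen. TDG, the glycosylase that removes the oxidised bases made by TET enzymes, did not pass in F1, at -0.06 on the log2 scale (limma adjusted p = 0.557). In the fit without SGM4, SGM8 and SGM20, APEX1 passed (limma adjusted p = 0.0424) and POLB and CXXC5 did not (limma adjusted p = 0.151 and 0.262).

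Of 13 NuRD genes, GATAD2B rose (log2 fold change 0.19, limma adjusted p = 0.0219) and 0 fell, with HDAC1 and HDAC2 at -0.12 and -0.13 (limma adjusted p = 0.135 and 0.0962). Of 17 genes of methyl donor supply, AHCYL2, a relative of the enzyme that clears S-adenosylhomocysteine, rose (0.29, limma adjusted p = 0.00868). BHMT, which remethylates homocysteine, and MAT2B, the regulatory subunit of S-adenosylmethionine synthesis, fell (log2 fold changes of -0.26 and -0.17, limma adjusted p = 0.0362 and 0.0386). KMT2A, KMT2B and KDM2A, with MBD5, DMAP1, SETD2, APEX1 and AHCYL2, passed without any 1 of the 10 animals. Of the other named partners, POLB passed in 9 of the 10 fits, GATAD2B in 8, NSD1 in 6, CXXC5 in 5, ZBTB38 and BHMT in 4 and MAT2B in 2. NSD1, BHMT and MAT2B also did not pass with the removed direction as a covariate (limma adjusted p = 0.0535, 0.0657 and 0.067), and none of these partners passed on unscaled values. Without SGM4, SGM8 and SGM20, AHCYL2, NSD1, ZBTB38 and BHMT did not pass (limma adjusted p = 0.0731, 0.135, 0.239 and 0.158). DMAP1, SETD2, MBD5, GATAD2B, KMT2A, KMT2B, KDM2A and MAT2B passed in that fit, which leaves few sGC animals. None of the 6 lists held a gene that passed in F2 or F3. CDCA7, an activator of the chromatin remodeller HELLS, had 9 to 26 scaled normalized counts in F2 Veh and 5 to 14 in F2 sGC (limma adjusted p = 0.269), and the reverse order in F3 with 7 to 11 in Veh and 9 to 16 in sGC (limma adjusted p = 0.234). The F3 estimate of KMT2A, which had risen in F1, was -0.14 on the log2 scale (limma adjusted p = 0.209).

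**Figure D5:**
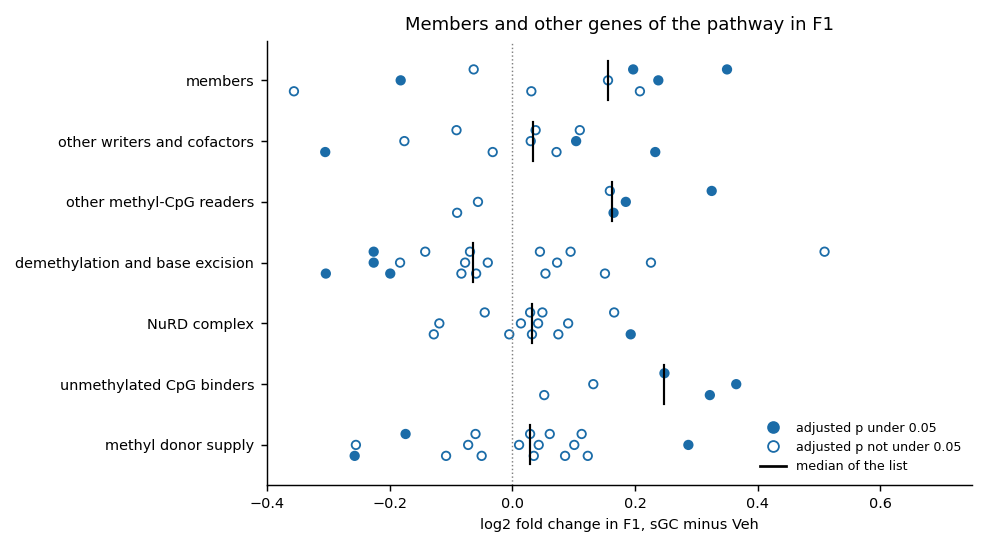
Log2 fold change of sGC against Veh in F1 (x axis) for each tested gene of the 9 (members) and of 6 lists of related genes (y axis); filled points passed a limma adjusted p of 0.05 and black lines mark list medians. The filled points of the genes listed as other methyl-CpG readers and as unmethylated CpG binders lie right of 0, and those of demethylation and base excision lie left of it.

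Within groups, the 9 genes varied together to different degrees. After centring each gene on its group and generation mean, the 36 pairs had a median Pearson r of 0.13 over 32 animals, and 3 pairs had r above 0.5. These were TET1 with TET3 (r = 0.73, Spearman rho = 0.77), DNMT3A with TET3 (0.72 and 0.61) and DNMT3A with TET1 (0.64 and 0.62). TET1 and TET3 had r of 0.78, 0.82 and 0.81 in F1, F2 and F3. TET2 went with TET3 in F2 (r = 0.76) and not in F1 (-0.15) or F3 (-0.01). The genes with the pattern most like TET3 among 11425 were IGSF9B (r = 0.83), HERC2 (0.76) and BIRC6 (0.76), those most like DNMT3A were NIN (0.81), ZNF276 (0.8) and ABCF1 (0.8), and those most like DNMT1 were WDR83OS (0.75), TEX15 (0.69) and SHARPIN (0.68). The animals of a generation share a normalization and the genes of an animal share a library and a punch, so these correlations are descriptions.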

How the data were processed

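RNA of PVN punches was sequenced by the authors, aligned to the cavPor3 guinea pig assembly (TopHat2 in the submitters' processing notes), counted per gene with GenomicAlignments and normalized by residuals with RUVSeq, after ComBat correction of 2 sequencing batches in F3. The deposited values are these normalized counts rounded to whole numbers and were treated as a score, not as raw reads. The tables also hold the authors' edgeR comparison columns (fold change, likelihood ratio, dispersion, p-value), which were not used here. The F3 columns of the 2 Veh animals that were sequenced again were taken as their first libraries, because their names lack the prefix of second-batch columns.

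Each table was scaled to median-of-ratios size factors and fitted apart after a log2 transform with a pseudocount of 1. The limma package (version 3.58.1, R 4.3.3) gave two-sided tests with a mean-variance trend for genes whose mean reached 10, with Benjamini-Hochberg adjustment over all genes and a threshold of 0.05. With that pseudocount, fold changes of low genes such as UHRF1 are understated. Near-zero singular values show that the residual normalization left 1 direction in F1, 1 in F2 and 2 in F3 without variance; an alternative fit takes them as covariates. Generations were compared in a joint limma fit of 11425 genes. Other alternatives were no scaling, scaling to totals, quantile normalization, a pseudocount of 5, a minimum mean of 50 or none, no trend, F3 batch, sample weights and leaving out each animal. One that leaves out F1 sGC animals of low PVN marker level was chosen after seeing the data.

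The 9 genes and all lists were chosen with earlier results of these data known. The genes named from each list are those that passed in F1, at most 3 by p, and in F2 and F3 the smallest p; 1 gene that this rule names is not reported here. The study's sample sizes are of independent litters, while the labels name no litter. The procedure was checked on simulated data with a log2 change of 1 given to 200 genes. There, unchanged genes made up a share of the calls above the threshold in F1 and F2 and below it in F3. That check does not cover changes as small as those of the 9 genes. The number of animals limits the precision, and no count-based interval is given because the values are not raw reads.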

Additional observations from a re-analysis of the deposited data

Results flagged for a closer look

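The effect of sGC passed as different between generations for 3 genes in the joint limma fit. The log2 fold change of UHRF2 in F1 minus that in F2 was -0.243, that of DNMT1 in F1 minus F3 was 0.286 and that of TET2 in F1 minus F3 was 0.494. The DNMT1 and TET2 differences were in F1 and F3 groups whose fold changes had opposite signs, and UHRF2 had opposite signs in F1 and F2. None of these 3 differences passed on unscaled values, and that of UHRF2 passed in 20 of 32 fits without 1 animal. The joint fit was not run with the removed directions as covariates.

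In 3 groups 1 animal stood apart from the others by the ratio of its gap to the range of the group (Dixon's 95% value). On the log2 scale, TET2 was 9.26 in the F2 Veh animal SGM29, against 9.43 to 9.47 in the other 4. TET3 was 9.36 in the F2 Veh animal SGM28, against 9.02 to 9.1. UHRF2 was 9.42 in the F3 Veh animal SGM5, against 9.59 to 9.69 in the other 5. Among the 54 groups examined, chance gives about 2.7 such animals.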

How the results depend on the processing

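The 4 genes of the 9 that passed in F1 became 0 without scaling, where 78 genes passed in place of 2058, and 1 with the removed direction as a covariate (1345 genes). With 1 animal left out they were 0 to 3 (904 to 2021 genes). Without the 3 sGC animals of low PVN marker level, 1032 genes passed, and MBD2 and MBD3 turned to -0.061 and 0.021. In F2 quantile normalization gave 42 genes and omission of 1 animal 0 to 2; the count of the 9 genes stayed 0 in F2 and F3 under all alternatives run. In F3 the genes that passed were 1 with the removed directions as covariates, 11 without trend, 3 with batch as a covariate, 0 in the first batch alone and 1 to 17 with 1 animal left out. Of the 9 genes, the count that differed between F1 and F2 was 0 with sample weights (0 to 1 with 1 animal left out), and that between F1 and F3 was 0 without scaling (2 to 3). Without scaling, F2 log2 fold changes turned to -0.036 for DNMT1, -0.042 for TET1, -0.011 for TET3, -0.02 for MBD3 and -0.013 for UHRF2. With 1 animal left out, log2 fold changes crossed 0 for MBD2 in F1 (-0.004 to 0.062) and in F2 (-0.054 to 0.008), for DNMT3A (-0.078 to 0.042), TET1 (-0.016 to 0.073) and TET2 (-0.107 to 0.018) in F2 and TET3 in F2 (0 to 0.132), and for TET3 (-0.016 to 0.031) and UHRF2 (-0.054 to 0.026) in F3. UHRF1 had no value at a minimum mean of 50. The cause of these moves was not tested. No paired analysis was possible because the groups compared share no animal numbers.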

Other observations

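DNMT3B, the second de novo methyltransferase, was not among the 9 genes, and its level was noticed after seeing the values. Its scaled normalized counts were 1904 to 2716 over the 10 animals of F1, 291 to 1013 over the 10 of F2 and 2613 to 2992 over the 12 of F3. The ratio of DNMT3B to DNMT3A within an animal, which no scaling between animals enters, was 0.702 to 1.23 in F1, 0.107 to 0.325 in F2 and 1.6 to 2.14 in F3, so the 3 ranges do not overlap. Other listed genes had a like dip in the F2 table, such as HDAC1 (Veh means of 5243, 824.7 and 4805 in F1, F2 and F3) and FBXL19 (8792, 1483 and 9861), so the F2 level is not particular to DNMT3B. Each table was normalized apart by residuals, and levels are not comparable between tables; the part of that step in these ratios was not tested.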
